A study of Homo sapiens with 18 samples.

Results

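The 30 genes described here were on in cells of the 143B osteosarcoma line and at background-like signal in cells of the MNNG/HOS line (MNNG below), when both were taken from bone tumors. They were chosen by their values on the dye-diluted (Low) arrays of each line. A gene was kept where its mean log2 signal was at least 7.5 over the 143B_Low arrays and under 5 over the MNNG_Low arrays, with a difference of at least 3. These limits were met by 36 of 19775 genes, and 6 of the 36 were not analysed here, which leaves 30. The limits turned round, on in MNNG_Low and off in 143B_Low, were met by 23 genes. The difference between the Low groups is therefore how the genes were chosen and not a result.

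Both lines are established human osteosarcoma lines that descend from the HOS line, MNNG/HOS through treatment with the carcinogen MNNG and 143B through transformation with the Kirsten ras oncogene. All tumor cells carried the green fluorescent protein ZsGreen and had been loaded with PKH26, a membrane dye that thins out as cells divide. The 143B_High group has 3 arrays of dye-retaining cells, which the labels call tumor-initiating, and the 143B_Low group has 5 arrays of dye-diluted bulk cells, all from orthotopic bone tumors. The MNNG_Lung group has 2 arrays of lung metastases from orthotopic transplants, the MNNG_High group 4 arrays of dye-retaining cells and the MNNG_Low group 4 arrays of dye-diluted cells from bone tumors. Per array, values are listed in the order tumor 143B-1253, pool 51&52 and pool 54&55 for 143B_High, tumors 143B-1251 to 143B-1255 for 143B_Low, animal MNNG-1233 and a mixture for MNNG_Lung, and tumors MNNG-1231, then MNNG-1232, MNNG-1233 and last MNNG-1235 for both MNNG bone groups. Each group comes from 1 cell line, 2 of the 143B_High arrays carry a pair of numbers (51&52 and 54&55) and are read as pools, whose makeup the labels do not give, and the labels do not say whether the lung cells were sorted for dye. All 143B arrays carry 1 date tag that no MNNG array carries, so line and date tag cannot be told apart.

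Signals are deposited log2 probe set values made with RMA, and a signal under 5.36, the median of the whole table, is called dim here because no detection calls were used. Sizes of differences from a dim group are uncertain. Over the whole table, r between arrays of a bone group was 0.956 or more, and between the 2 lung arrays it was 0.865. The lung arrays also had a narrower spread of signal, with interquartile ranges of 2.09 and 2.28 in MNNG_Lung against 2.76 to 3.18 in MNNG_High. The MNNG_High spread was in turn narrower than that of 143B_High, at 3.26 to 3.34. Small differences of genes near or under 5.36 are uncertain between groups of unlike spread. VIM, a mesenchymal intermediate filament, had mean signals of 14.51 in 143B_High and 14.52 in 143B_Low. Its means were 14.28 in MNNG_Lung, 14.57 in MNNG_High and 14.55 in MNNG_Low. RUNX2, the osteoblast transcription factor, had means of 8.66, 8.83, 6.68, 10.10 and 10.50 in the same order. Other osteoblast genes differed among themselves. SP7 and IBSP were dim in all 4 bone groups. SPP1 had means of 8.44 in 143B_High, 7.88 in 143B_Low, 4.72 in MNNG_High and 5.39 in MNNG_Low. COL1A1 had 10.61, 10.52, 13.83 and 13.55 in these groups. In such bulk arrays, fewer cells that express a gene and less RNA per cell cannot be told apart.

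Tissue-restricted genes are silent in most cells, often held in that state by the chromatin of their promoters, and tumor lines can express some of them outside their usual tissue. Several of the 30 are known from other tissues: muscle (CHRNA1), neurons (RTN1, NTRK2, FEZ1, NAP1L2), vessels (ANGPT2, ESM1, AGTR1), germ cells and early embryos (PASD1, TDRP, LIN28B, TRIM71). Promoters rich in the dinucleotide CG are usually free of DNA methylation and can be shut by it or by Polycomb proteins, while CG-poor promoters more often belong to genes used by a single tissue.

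Promoter windows of 300 bases, from 250 before to 50 after the most upstream annotated start, were taken from RefSeq on GRCh38.p14 and found for 24 of the 30 genes. With CG-dense defined as at least 50% G and C with an observed-over-expected CG ratio of at least 0.6, 14 of the 24 windows (58.3%) were CG-dense, against 74.2% of 11514 tested genes and 46.8% of 27305 genes in the RefSeq table. The median window of the members had 63.3% G and C and 24 CG dinucleotides, against 65.0% and 25 in the tested genes. Members thus had both kinds of promoter window, and whether these starts are the ones used in these cells was not tested. TMEM47 with 45 CG dinucleotides and LIN28B with 37 are CG-dense, PASD1 with 11 is intermediate, and CHRNA1 with 3 is CG-poor. The first 3 sequences show CG dinucleotides in capitals, and all are written 5′ to 3′ on the gene's strand.
TMEM47 (GRCh38.p14, chrX:34657236-34657535, minus strand): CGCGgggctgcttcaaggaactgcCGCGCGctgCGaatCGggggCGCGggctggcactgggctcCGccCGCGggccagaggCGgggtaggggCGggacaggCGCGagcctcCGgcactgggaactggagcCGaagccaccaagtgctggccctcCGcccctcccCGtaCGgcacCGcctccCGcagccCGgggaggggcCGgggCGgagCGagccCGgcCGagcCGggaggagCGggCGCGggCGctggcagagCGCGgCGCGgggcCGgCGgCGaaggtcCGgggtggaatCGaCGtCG
LIN28B (GRCh38.p14, chr6:104940715-104941014, plus strand): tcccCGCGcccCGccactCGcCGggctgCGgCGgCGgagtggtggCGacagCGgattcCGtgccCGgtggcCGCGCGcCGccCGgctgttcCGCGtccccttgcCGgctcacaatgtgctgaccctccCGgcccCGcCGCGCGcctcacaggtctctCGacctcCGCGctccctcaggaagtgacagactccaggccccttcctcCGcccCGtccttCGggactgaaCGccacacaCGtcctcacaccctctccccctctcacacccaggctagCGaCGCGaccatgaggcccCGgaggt
PASD1 (GRCh38.p14, chrX:151563425-151563724, plus strand): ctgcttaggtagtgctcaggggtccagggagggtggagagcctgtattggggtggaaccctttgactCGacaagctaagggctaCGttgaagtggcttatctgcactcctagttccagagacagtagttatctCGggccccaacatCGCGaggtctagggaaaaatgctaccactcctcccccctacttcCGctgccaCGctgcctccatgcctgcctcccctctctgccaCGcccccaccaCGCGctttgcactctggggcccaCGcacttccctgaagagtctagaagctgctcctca
The CHRNA1 window is shown because muscle regulatory factors of the MyoD family bind E-boxes, CANNTG, in the promoters of muscle acetylcholine receptor genes. It holds 3 E-boxes, in capitals below; the motif CANNTG is the same on both strands.
CHRNA1 (GRCh38.p14, chr2:174764423-174764722, minus strand): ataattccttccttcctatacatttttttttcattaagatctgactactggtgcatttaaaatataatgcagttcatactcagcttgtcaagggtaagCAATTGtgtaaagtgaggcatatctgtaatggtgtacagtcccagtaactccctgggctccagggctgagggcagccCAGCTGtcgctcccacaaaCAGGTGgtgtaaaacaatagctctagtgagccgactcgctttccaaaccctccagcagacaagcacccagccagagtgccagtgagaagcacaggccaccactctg
At least 1 E-box was found in 16 of the 24 member windows (66.7%), against 61.5% of tested genes and 69.0% of all genes in the table, and 3 or more in 4 member windows (16.7%), against 9.88% and 15.5%. The TATA motif TATAAA, on either strand, was in 1 member window, that of ESM1 (4.17%), against 6.38% of tested genes and 12.0% of all genes. These are matches of letters and not binding sites.

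**Figure D1:**
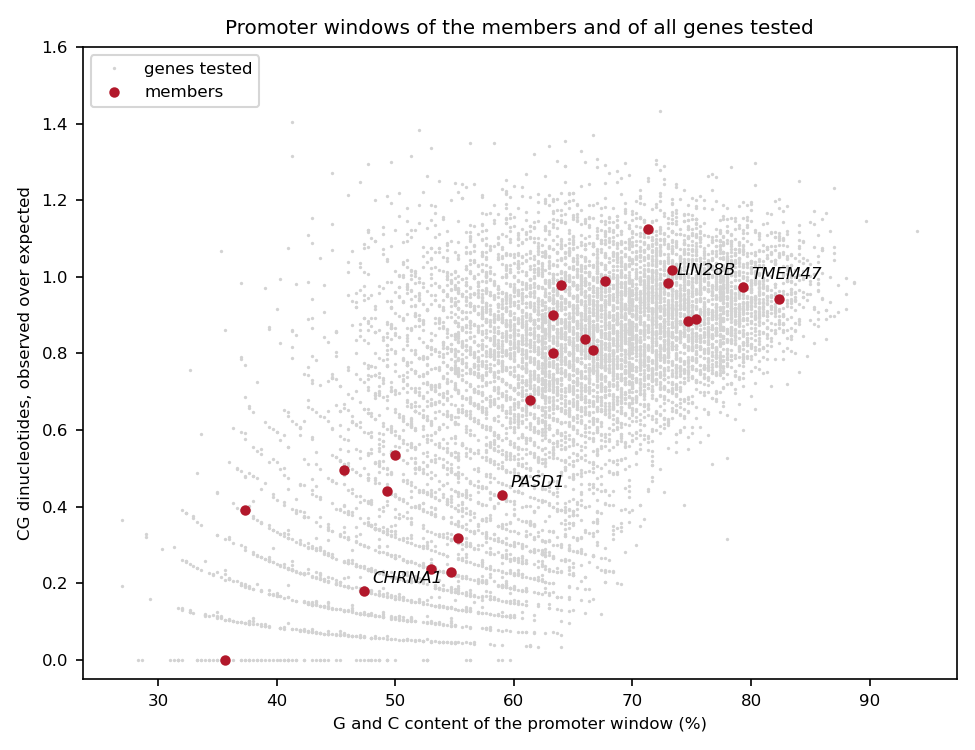
Share of G and C (percent, horizontal axis) and observed-over-expected CG ratio (vertical axis) of the 300-base promoter windows, with 24 members as red points and 11514 tested genes in grey. Members lie in both the CG-dense cloud, with TMEM47 and LIN28B, and the CG-poor tail, with CHRNA1; VEPH1 had no CG dinucleotide in its window.

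Across the members, mean signals ran from 6.80 to 9.95 in 143B_High and from 7.55 to 10.34 in 143B_Low. They ran from 3.71 to 6.12 in MNNG_Lung, from 3.49 to 5.37 in MNNG_High and from 3.22 to 4.95 in MNNG_Low. The lowest 143B array was above the highest MNNG array, bone or lung, for all 30 genes, against 10.8% of all genes tested, and the narrowest gap was 0.57, for RASSF2. The Low arrays that chose the genes are among these arrays, so the separation was largely fixed by the choice. On each 143B array all 30 members reached 5.36. On the MNNG arrays 8 and 13 members did so in lung, 1 to 3 in MNNG_High and 1 or 2 in MNNG_Low.

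**Figure D2:**
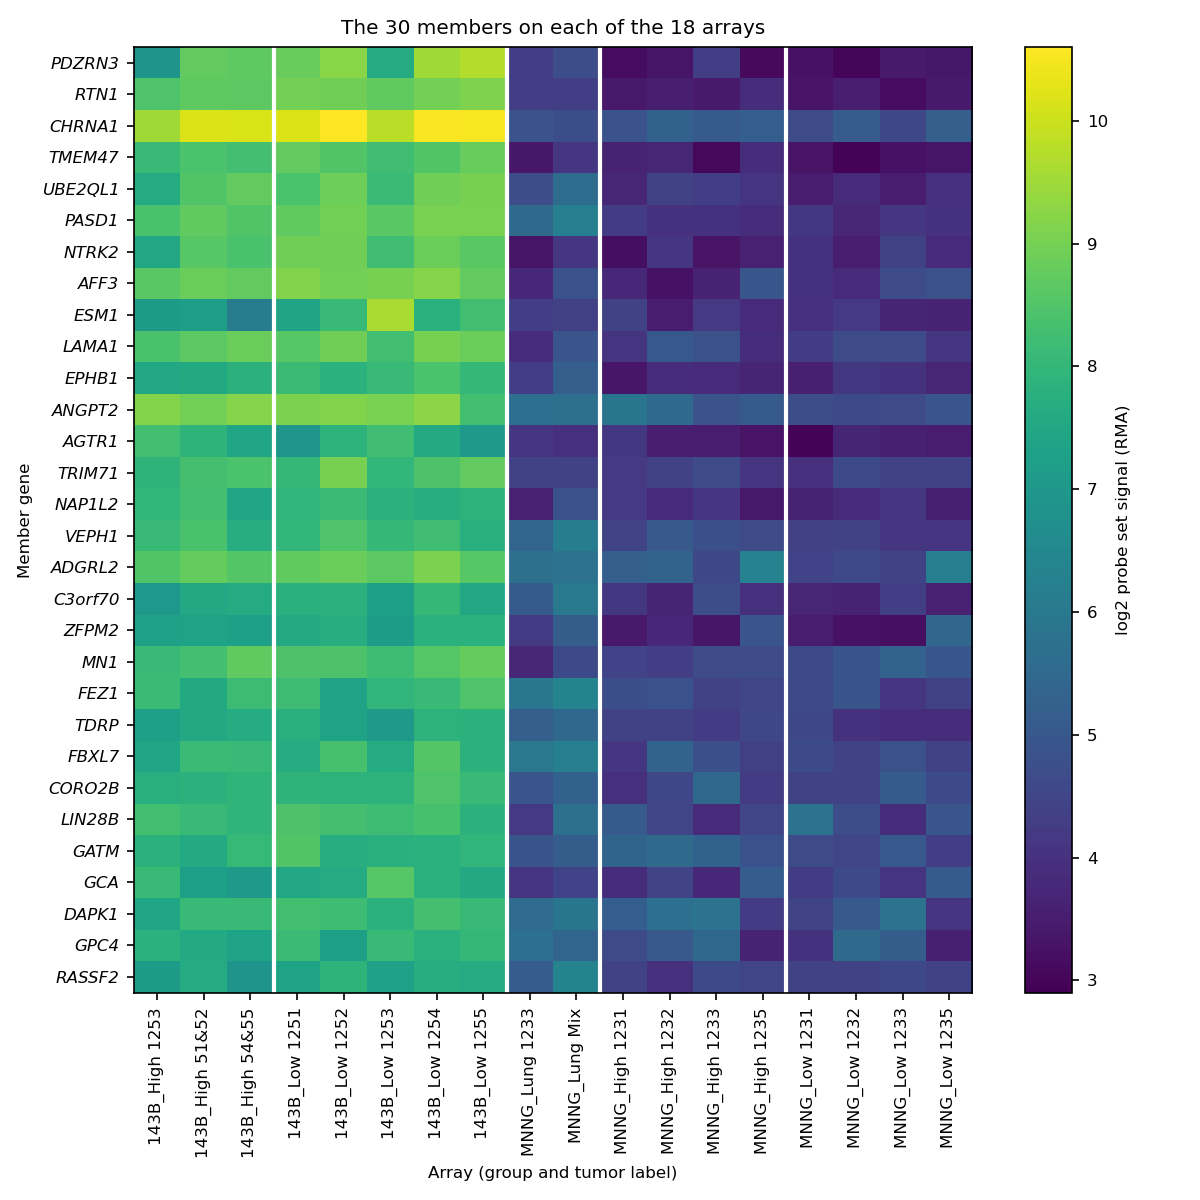
Log2 signal (colour) of the 30 members (rows, in order of the Low difference used to choose them) on 18 arrays (columns, by group and tumor). Every 143B array is brighter than every MNNG array in each row; within 143B the widest range belongs to ESM1, 6.13 to 9.64, and within the MNNG bone groups ADGRL2 and ZFPM2 are brightest in tumor MNNG-1235.

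The comparison of 143B_High with MNNG_High used arrays that the selection did not use, although the choice of probe set used all 18 arrays, and tumor 143B-1253 and the 4 MNNG tumors gave both a High and a Low array. Whether the pools 51&52 and 54&55 hold the tumors of the 143B_Low arrays is not stated in the labels. All 30 members were higher in 143B_High (limma, 3 against 4 arrays, adjusted p from 6.80e-14 to 4.52e-05 over 14418 genes tested). Over all genes tested, 36.1% were called in either direction and 21.4% were called higher. None of the 30 had overlapping groups, against 24.9% of tested genes with all 143B_High arrays above all MNNG_High arrays. The median difference of the members was 3.70 on the log2 scale, with a range of 2.55 to 5.02, against a median of 0.01 over all genes tested. A call with a difference of at least 3 was made for 25 members, against 0.52% of genes tested. All 30 passed the filter on dim genes through their 143B arrays, so a difference between the lines was built in, and the counts describe the genes without adding support. Differences below are log2 values, each with its standard error (±) from limma.

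**Figure D3:**
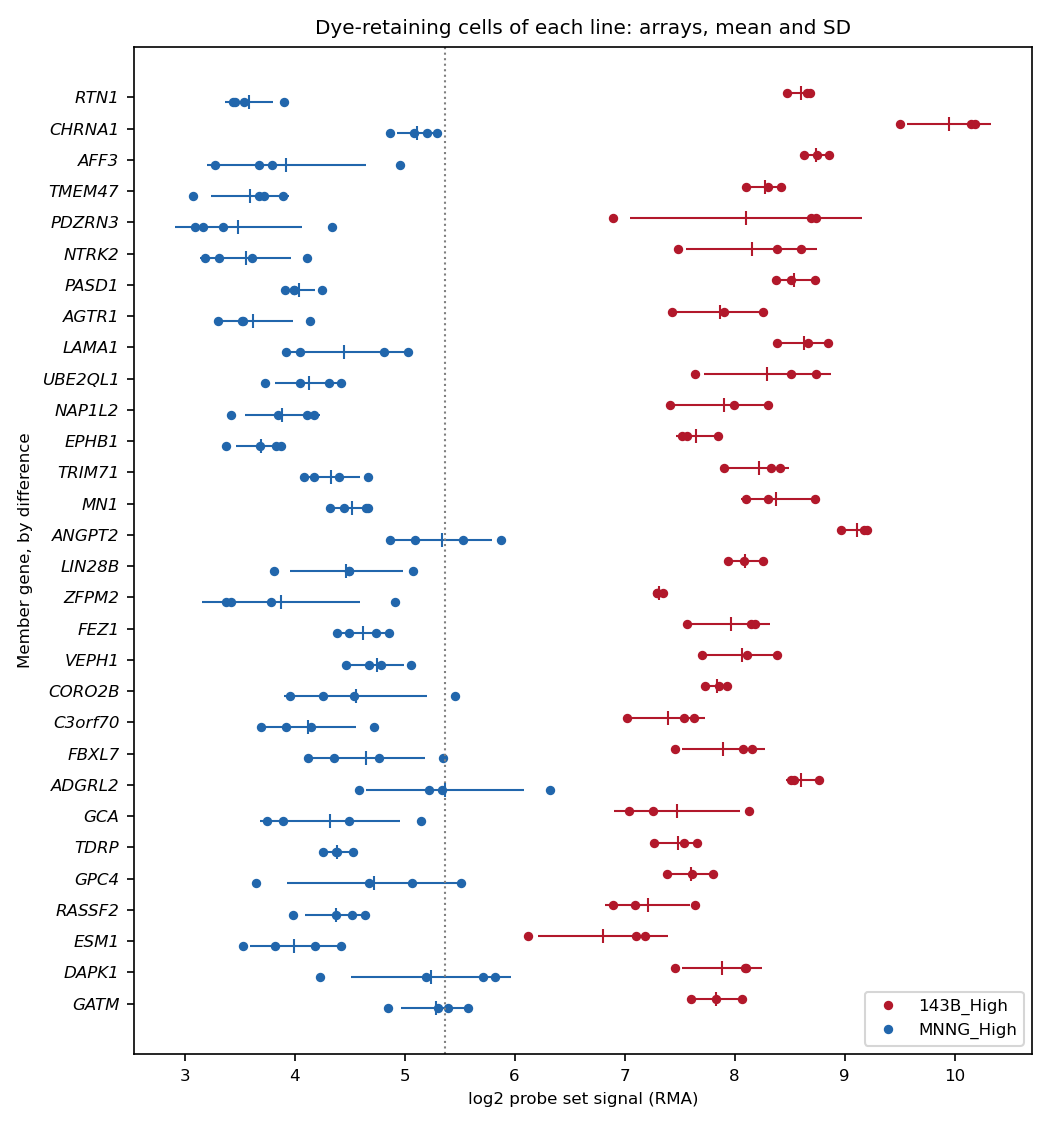
Log2 signal of each array (points), mean (tick) and SD (line) in 143B_High (red, n = 3) above MNNG_High (blue, n = 4) for each member, ordered by difference. The groups are apart for all 30 genes, from RTN1 at the top to GATM at the bottom, and most MNNG_High means lie left of the dotted line at 5.36.

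Genes of the neuronal kind included the member with the largest difference. RTN1 encodes a reticulon that shapes the endoplasmic reticulum of neurons and neuroendocrine cells. Its signals were 8.47, 8.69 and 8.66 in 143B_High, against 3.44, 3.54, 3.46 and 3.90 in MNNG_High. The arrays of each group were close together, and RTN1 was 32.5-fold higher (5.02 ± 0.14, adjusted p = 6.80e-14). NTRK2, the receptor tyrosine kinase for brain-derived neurotrophic factor, had 7.48, 8.60 and 8.39 in 143B_High, against 3.19, 4.12, 3.32 and 3.61 in MNNG_High. It was 24.2-fold higher (4.60 ± 0.29, adjusted p = 1.87e-09), with tumor 143B-1253 the lowest of the 143B_High arrays. EPHB1, a receptor for ephrin-B ligands that guides axons, was 15.5-fold higher (3.95 ± 0.21), NAP1L2, a histone chaperone of neurons, 16.2-fold (4.01 ± 0.25), and FEZ1, a kinesin adaptor needed for axon growth, 10.2-fold (3.35 ± 0.24). ADGRL2, a latrophilin of the adhesion G protein-coupled receptors, was 9.45-fold higher (3.24 ± 0.37).

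CHRNA1 encodes the ligand-binding alpha subunit of the muscle acetylcholine receptor. It had signals of 9.51, 10.19 and 10.15 in 143B_High, against 4.87, 5.30, 5.08 and 5.21 in MNNG_High. It was 28.5-fold higher (4.83 ± 0.22, adjusted p = 2.11e-11), and all MNNG_High arrays were dim for it. None of the 3 other receptor subunits tested was called higher. CHRND and CHRNG, the delta and gamma subunits, fell by 0.60 and 0.57 in 143B_High (adjusted p = 0.0166 and 0.0088), CHRNE gave -0.37 (adjusted p = 0.161), and CHRNB1 was not tested, with dim means of 4.83 in 143B_High and 5.14 in MNNG_High. Both falls were at low signal, with CHRND at 5.07 in 143B_High and 5.67 in MNNG_High, and CHRNG at 5.72 and 6.30. PDZRN3 encodes a ubiquitin ligase that acts on the kinase MuSK at the nerve-muscle junction. Its signals were 6.89, 8.74 and 8.69 in 143B_High, against 3.17, 3.35, 4.34 and 3.10 in MNNG_High. The groups were apart even though tumor 143B-1253 lay well under the pools, and PDZRN3 was 24.6-fold higher (4.62 ± 0.46, adjusted p = 5.41e-07).

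Of the endplate list, 5 genes besides CHRNA1 were tested in this comparison, and 1 rose and 3 fell in 143B_High. The gene that rose was LRP4, the agrin receptor, by 0.58 (adjusted p = 0.0155), and AGRN, its ligand, fell by 0.38 (adjusted p = 0.0312), along with CHRND and CHRNG. MUSK was dim, at means of 3.55 in 143B_High and 3.90 in MNNG_High. Of the list of myogenic regulators and muscle proteins, 6 of 15 genes were tested, and 1 rose and 3 fell. TNNT1, slow skeletal troponin T, rose by 2.71 ± 0.25 (adjusted p = 1.82e-07), while ACTA1, skeletal actin, fell by 0.81, MEF2C, a muscle transcription factor, by 0.70, and DES, desmin, by 0.38. MYOD1, the myogenic master regulator, gave -0.33 (adjusted p = 0.102), and MYOG was dim in both High groups, at 4.29 in 143B_High and 4.57 in MNNG_High.

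UBE2QL1 and FBXL7 belong with PDZRN3 to the ubiquitin system. UBE2QL1, which resembles E2 ubiquitin-conjugating enzymes, had 7.64, 8.51 and 8.74 in 143B_High, against 3.74, 4.42, 4.31 and 4.05 in MNNG_High, and was 18-fold higher (4.17 ± 0.28, adjusted p = 3.96e-09). FBXL7, an F-box subunit that picks substrates for SCF ubiquitin ligases, was 9.5-fold higher (3.25 ± 0.27). In the E2 family of UBE2QL1, UBE2Q2 rose by 0.51 (adjusted p = 0.0374) and UBE2Q1 fell by 1.18 (adjusted p = 0.0029), and of the PDZRN3 relatives LNX1 gave 0.28 (adjusted p = 0.464) and LNX2 0.22 (adjusted p = 0.404). Among the reticulons, RTN3 rose by 1.21 (adjusted p = 7.18e-05), RTN4 gave 0.19 (adjusted p = 0.626) and RTN2 -0.29 (adjusted p = 0.124).

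Germline and embryonic genes formed another group. PASD1, a cancer-testis antigen that represses the circadian CLOCK complex, had 8.38, 8.73 and 8.51 in 143B_High, against 4.25, 3.99, 3.998 and 3.91 in MNNG_High. Its arrays agreed closely within each group, and it was 22.7-fold higher (4.504 ± 0.17, adjusted p = 1.82e-12). LIN28B, an RNA-binding protein that blocks maturation of let-7 microRNAs, had 8.26, 8.08 and 7.94 in 143B_High, against 5.08, 4.498, 3.81 and 4.498 in MNNG_High, and was 12.3-fold higher (3.62 ± 0.38, adjusted p = 1.15e-06). TRIM71 (LIN41), whose mRNA is a let-7 target, had 7.90, 8.33 and 8.41 in 143B_High, against 4.17, 4.40, 4.67 and 4.08 in MNNG_High. It was 14.8-fold higher (3.89 ± 0.23, adjusted p = 9.83e-10). TDRP, a nuclear factor named for its role in testis development, was 8.57-fold higher (3.10 ± 0.20).

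The other cancer-testis antigens were mostly dim: 31 of the 43 listed were measured, and 5 besides PASD1 were tested. TEX15 rose by 1.23 and PRAME by 0.54, and XAGE3 fell by 0.48 (adjusted p = 0.0097, 0.0044 and 0.0366). XAGE3 was dim in both High groups, at 4.76 in 143B_High and 5.24 in MNNG_High. A let-7 list of 10 genes was chosen after the values were seen and is given as a description. Of its 9 tested genes, 6 were called higher and 1 lower, with a median of 0.90. The gene called lower was MYCN, by 0.68 (limma adjusted p = 0.0049). With a second quantile normalization over the represented genes, 4 were called higher and 1 lower. HMGA2, a chromatin protein whose mRNA is repressed by let-7, rose by 1.80 ± 0.21, and the mRNA-binding proteins IGF2BP3 and IGF2BP2 rose by 1.56 ± 0.38 and 1.43 ± 0.15. LIN28A, the paralog of LIN28B, was dim, at 2.75 in 143B_High and 2.99 in MNNG_High.

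ANGPT2 and ESM1 are best known as products of activated endothelium. ANGPT2, a ligand of the receptor TEK, had 9.17, 8.96 and 9.21 in 143B_High, against 5.88, 5.53, 4.87 and 5.09 in MNNG_High, and was 13.7-fold higher (3.77 ± 0.23, adjusted p = 1.04e-09). ESM1, the secreted proteoglycan endocan, had 7.10, 7.18 and 6.13 in 143B_High, against 4.42, 3.53, 4.19 and 3.82 in MNNG_High. It was 7.03-fold higher (2.81 ± 0.38, adjusted p = 1.96e-05), with pool 54&55 the lowest. AGTR1, the angiotensin II receptor of vessel muscle and adrenal gland, was 18.8-fold higher (4.24 ± 0.29). Of 5 endothelial markers tested, 1 rose (ROBO4, by 1.30) and 0 fell, with a median of -0.28. The mean level of the endothelial list was 4.89 to 5.22 in 143B_High, against 4.91 to 5.16 in MNNG_High, and CDH5 and TEK were dim in both, CDH5 at 3.67 and 3.59 and TEK at 4.41 and 4.92.

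Matrix, surface and junction genes were next. TMEM47, a membrane protein of cell junctions related to the claudins, had 8.11, 8.42 and 8.30 in 143B_High, against 3.68, 3.72, 3.08 and 3.89 in MNNG_High, and was 25.7-fold higher (4.68 ± 0.20, adjusted p = 1.36e-11). LAMA1, a laminin alpha chain of embryonic basement membranes, was 18.1-fold higher (4.18 ± 0.28). GPC4, a glypican heparan sulfate proteoglycan, had 7.81, 7.61 and 7.38 in 143B_High, against 4.67, 5.07, 5.51 and 3.65 in MNNG_High. The MNNG_High arrays were widely spread, and GPC4 was 7.35-fold higher (2.88 ± 0.42, adjusted p = 4.52e-05). Among 15 tested ligands, receptors and partners of the surface members, a list also drawn up after the values were seen, 0 were called higher and 3 lower. GPC6, another glypican, fell by 2.08 ± 0.30, EFNB2, an ephrin ligand of EPHB receptors, by 0.78, and NTRK3, a relative of NTRK2, by 0.57.

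Regulators of transcription were among the members. AFF3, a nuclear protein of the AF4 family, had 8.63, 8.86 and 8.74 in 143B_High, against 3.80, 3.28, 3.68 and 4.96 in MNNG_High. Tumor MNNG-1235 was the brightest MNNG_High array, and AFF3 was 28.2-fold higher (4.82 ± 0.33, adjusted p = 4.38e-09). MN1, a coactivator rearranged in meningioma and leukemia, was 14.5-fold higher (3.86 ± 0.21), and ZFPM2 (FOG2), a cofactor of GATA proteins, 10.8-fold (3.44 ± 0.44).

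The smallest differences included regulators of growth and death. DAPK1, a calmodulin-dependent kinase that promotes cell death, had 7.46, 8.09 and 8.10 in 143B_High, against 5.20, 5.71, 5.82 and 4.23 in MNNG_High, and was 6.25-fold higher (2.64 ± 0.36, adjusted p = 2.15e-05). RASSF2, a Ras-association protein often silenced by methylation in tumors, had 7.09, 7.64 and 6.90 in 143B_High, against 4.38, 3.98, 4.64 and 4.52 in MNNG_High. It was 7.11-fold higher (2.83 ± 0.24, adjusted p = 9.34e-08). GATM, the first enzyme of creatine synthesis, had 7.83, 7.60 and 8.07 in 143B_High, against 5.40, 5.58, 5.30 and 4.85 in MNNG_High, and was 5.86-fold higher (2.55 ± 0.21, adjusted p = 6.70e-08), the smallest difference of the 30. GCA, a calcium-binding protein of neutrophil granules, was 8.89-fold higher (3.15 ± 0.34), CORO2B, an actin-binding coronin, 9.75-fold (3.29 ± 0.27), VEPH1, a pleckstrin homology domain protein, 9.98-fold (3.32 ± 0.21), and C3orf70 9.68-fold (3.28 ± 0.27). Of 18 listed targets of the ERK pathway, which acts downstream of RAS, none is a member and all were tested: 12 rose and 1 fell in 143B_High, with a median of 0.92. FOSL1 rose by 1.91 ± 0.21, EPHA4 by 1.78 ± 0.20 and ETV5 by 1.49 ± 0.17, and EGR1 fell by 0.47.

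Other lists show what did and did not move in this comparison. Of 10 tested neural and neuroendocrine genes, none a member, 2 rose and 1 fell: NCAM1, the neural cell adhesion molecule, rose by 3.91 ± 0.21, SCG2, a secretogranin, by 1.45 ± 0.36, and SCG5, a chaperone of secretory granules, fell by 6.05 ± 0.33. Of 9 tested mesenchymal and osteoblast genes, 1 rose and 5 fell: SPP1, osteopontin, rose by 3.72 ± 0.60, and COL1A1, type I collagen, fell by 3.23 ± 0.84 and RUNX2 by 1.44 ± 0.24. Of 7 tested macrophage markers, 0 rose and 4 fell, AIF1 by 1.28, and the list's mean level was 5.03 to 5.33 in 143B_High, against 5.48 to 5.94 in MNNG_High. The lung epithelium list had 0 higher and 1 lower of 6 tested. With a second quantile normalization over the represented genes, chosen after seeing the data, each list gene named with a call kept its sign in this comparison, and the calls of CHRND, LRP4, DES, UBE2Q2, PRAME and XAGE3 were lost.

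Other probe sets of the same genes gave a second reading of the comparison. For 19 of the 30 genes, 40 further probe sets are annotated to the gene alone. Their signal in 143B_High was above that in MNNG_High for 28 of the 40, by at least 1 for 15 and at least 3 for 6, with a median of 0.52, and the 2 groups did not overlap, with 143B_High higher, for 20. For ANGPT2 the other probe sets differed by 6.31, 5.09 and 4.96, each more than the 3.77 of the representative one. Of the 6 marker genes, RTN1 had 1 further probe set with a difference of 3.38, TMEM47 1 with 2.86, UBE2QL1 1 with 1.45 and CHRNA1 1 with 1.11, while PDZRN3 had 2, with 0.97 and -0.14. VEPH1 had 3, with 4.01, 0.59 and 0.14, and without probe sets of the _s_at and _x_at types its difference was 0.59 ± 0.19 (limma adjusted p = 0.0231), against the 3.32 given above. The other GATM probe sets ran from -0.62 to 4.09. Of the 40, 24 reached a group mean of 5.36 in at least 1 group, and 17 of those did not overlap. Several others were dim in all 4 bone groups, such as 4 NTRK2 probe sets with differences of -0.50 to 0.07. So were the other AFF3 probe sets, with differences of 1.15, 0.08, -0.01, -0.07 and -0.36, against the 4.82 of the representative one. Those of LAMA1, ADGRL2 and DAPK1, also dim there, differed by 0.06, 0.09 and -0.20. For these 4 genes the large difference thus rests on 1 probe set. The members outside the 19 have no further probe set, so theirs does too. They are PASD1, ESM1, TRIM71, NAP1L2, ZFPM2, MN1, FBXL7, CORO2B, LIN28B, GCA and RASSF2. The further probe sets of FEZ1 and C3orf70, dim in all 4 bone groups, differed by 0.71 and 1.32. The GATM probe set at -0.62 was lower in 143B_High with no overlap. The ESM1 probe set is of a type whose probes can match other transcripts.

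Within 143B, the members differed little between the dye fractions, which is given without a test because the Low arrays chose the genes. The difference of 143B_High minus 143B_Low was below 0 for 28 of 30 members, with a median of -0.27, against -0.02 over all genes tested. The members were chosen for high 143B_Low means, which by itself can lower this difference. It was within 0.5 of 0 for 27. ESM1 had the widest one, -1.44, with 7.10, 7.18 and 6.13 in 143B_High, against 7.39, 8.12, 9.64, 7.81 and 8.27 in 143B_Low. Every 143B_High array was below every 143B_Low array for 2 of the 30 members, ESM1 and RTN1, against 6.53% of all genes tested, a share near that of the members. PDZRN3 had -0.87, with 6.89, 8.74 and 8.69 in 143B_High, against 8.80, 9.24, 7.64, 9.51 and 9.70 in 143B_Low, and its groups overlapped. NTRK2 had -0.56, with 7.48, 8.60 and 8.39 in 143B_High, against 8.94, 8.94, 8.23, 8.87 and 8.63 in 143B_Low, also overlapping. AGTR1, at 0.31, and ANGPT2, at 0.15, were the only members above 0.

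Tumor 143B-1253 had lower signals than the other 143B arrays in both fractions for many members. In 143B_High those are the arrays read as pools, so only in 143B_Low is it set against single tumors. It was the lowest 143B_High array for 18 of the 30 (60.0%, against 31.9% of all genes tested) and the lowest 143B_Low array for 16 (53.3%, against 19.0%). For 14 members it was lowest in both fractions (46.7%, against 11.3%). Examples are PDZRN3, at 6.89 in the High and 7.64 in the Low fraction of that tumor, UBE2QL1, at 7.64 and 8.16, and CHRNA1, at 9.51 and 9.81. GCA and AGTR1 went the other way: tumor 143B-1253 had the highest signal of GCA, at 8.13 in 143B_High and 8.61 in 143B_Low, and of AGTR1, at 8.26 and 8.25. These are counts over 30 genes in 1 tumor, and no test was made.

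In MNNG, the same comparison of fractions was small and mostly positive. MNNG_High minus MNNG_Low was above 0 for 21 members and below 0 for 9, with a median of 0.11, against -0.19 over all genes tested. The members were chosen for low MNNG_Low means, which by itself can raise this difference. The spread of signal also differed, with interquartile ranges of 2.76 to 3.18 in MNNG_High against 3.29 to 3.40 in MNNG_Low. Most genes tested are brighter than the members, so the 2 medians are not a like comparison, and no effect of the dye fraction was tested. GATM had the largest, 0.64, with 5.40, 5.58, 5.30 and 4.85 in MNNG_High, against 4.69, 4.52, 5.01 and 4.34 in MNNG_Low. ANGPT2 had 0.60, with 5.88, 5.53, 4.87 and 5.09 in MNNG_High, against 4.72, 4.63, 4.69 and 4.92 in MNNG_Low. VEPH1 had 0.51, with 4.46, 5.05, 4.78 and 4.68 in MNNG_High, against 4.36, 4.41, 4.10 and 4.05 in MNNG_Low. It was the 1 member of 30 with all MNNG_High arrays above all MNNG_Low arrays, a pattern that 10.4% of all genes tested had. MN1 was at the other end, at -0.43. Of the MNNG_Low arrays only that of tumor MNNG-1231 carries the date tag of MNNG_High, and against it alone the members' median was 0.21, with 23 above 0, and that of all genes tested was -0.14.

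The low signals in MNNG were not equal between tumors. The tumor with the highest signal was the same in both fractions for 16 of the 30 members (53.3%, against 39.2% of all genes tested), and the lowest was the same for 14 (46.7%, against 35.5%). ADGRL2 stood out in tumor MNNG-1235, at 6.32 in MNNG_High and 6.22 in MNNG_Low, against 4.58 to 5.34 in the other MNNG_High arrays and 4.38 to 4.60 in the other MNNG_Low arrays. ZFPM2 was also highest in tumor MNNG-1235, at 4.92 in MNNG_High and 5.43 in MNNG_Low. DAPK1 and GPC4 were lowest in that tumor, DAPK1 at 4.23 in MNNG_High and 4.10 in MNNG_Low, and GPC4 at 3.65 and 3.59. LIN28B was highest in tumor MNNG-1231, at 5.08 in MNNG_High and 5.84 in MNNG_Low. Many of these signals are dim, and whether they are expression was not tested.

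**Figure D4:**
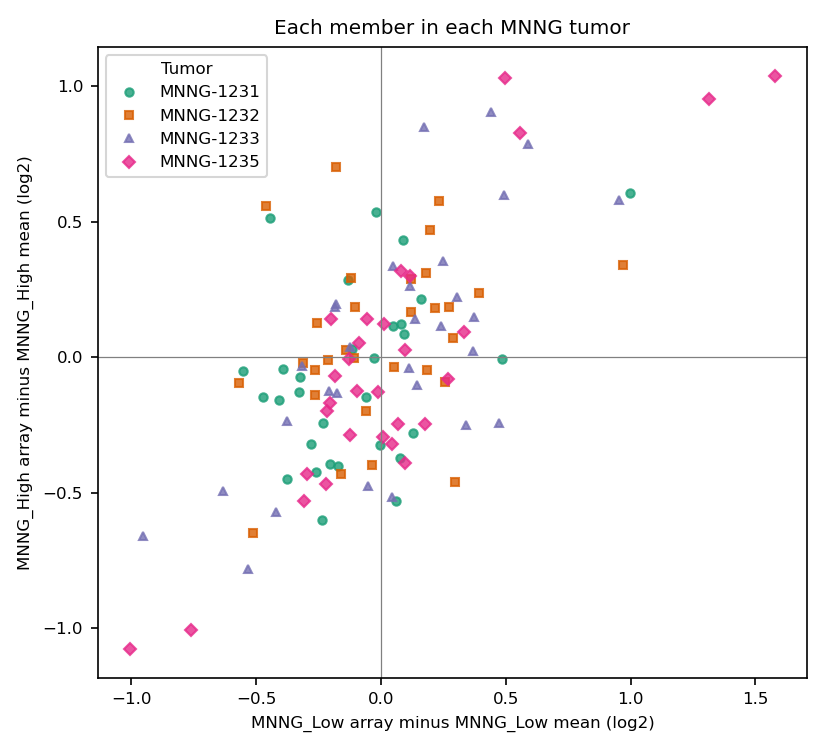
Deviation of each member from its group mean (log2) in the MNNG_Low (horizontal axis) and MNNG_High (vertical axis) arrays of the same tumor, for 30 members and 4 tumors (symbols). The 2 points at the upper right are ADGRL2 and ZFPM2 in tumor MNNG-1235, and the 2 at the lower left are GPC4 and DAPK1 in tumor MNNG-1235.

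The lung arrays hold RNA labelled as MNNG lung metastasis. In MNNG_Lung no member reached a signal of 7.5 on either array, and the member medians were 4.54 and 5.21, against 4.17 to 4.39 on the MNNG_High arrays. Against MNNG_High, which shares the date tag of the lung arrays, 10 members were called higher, 0 lower and 20 were not called (limma, 2 against 4 arrays). At an unadjusted p under 0.05 the counts were 10 higher and 0 lower. Over all genes tested, 82.4% were called, 34.8% higher and 47.6% lower, and both lung arrays were above all MNNG_High arrays for 32.4%, as they were for 10 members. Of 1384 tested genes that were dim in MNNG_High, 71.3% were called higher in MNNG_Lung. The median difference was 0.50 over the members, -0.37 over all genes tested and 0.98 over those dim genes. The share of members called higher, 10 of 30, was close to that of all genes tested and well under that of the dim genes. Member means in MNNG_High were 5.37 at most, so the dim genes are the nearer comparison. The median over all genes tested was itself scale-dependent, at -0.19 with median centring and 0.20 with a second quantile normalization over the represented genes. With array weights only PASD1, C3orf70 and RASSF2 were called, and with the mean over all probe sets of a gene 18 were. With a second quantile normalization over all probe sets, a different scaling from that over the represented genes, 3 members were called lower.

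PASD1 had the largest difference, with 5.57 and 6.22 in MNNG_Lung, against 4.25, 3.99, 3.998 and 3.91 in MNNG_High. It was 3.63-fold higher (1.86 ± 0.19, adjusted p = 6.46e-08) and still below every 143B array. FEZ1 had 5.92 and 6.33 in MNNG_Lung, against 4.74, 4.85, 4.38 and 4.495 in MNNG_High, and was 2.84-fold higher (1.51 ± 0.27, adjusted p = 5.28e-05). FBXL7 had 5.97 and 6.22 in MNNG_Lung, against 4.12, 5.35, 4.77 and 4.36 in MNNG_High, and was 2.72-fold higher (1.44 ± 0.31, adjusted p = 0.000296). In each of these genes both lung arrays lay above all MNNG_High arrays. C3orf70 had 5.08 and 6.01 in MNNG_Lung, against 4.15, 3.69, 4.72 and 3.92 in MNNG_High, and was 2.68-fold higher (1.42 ± 0.30, adjusted p = 0.00031). RASSF2 had 5.14 and 6.33 in MNNG_Lung, against 4.38, 3.98, 4.64 and 4.52 in MNNG_High, a 2.56-fold rise (1.35 ± 0.27, adjusted p = 0.000179), with the mixture the higher lung array.

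Of the remaining called members, EPHB1 had 4.29 and 5.24 in MNNG_Lung, against 3.37, 3.88, 3.83 and 3.69 in MNNG_High (1.08 ± 0.24, adjusted p = 0.000399). VEPH1 had 5.40 and 6.13 in MNNG_Lung, against 4.46, 5.05, 4.78 and 4.68 in MNNG_High (1.02 ± 0.24, adjusted p = 0.000697). RTN1 had 4.31 and 4.31 in MNNG_Lung, against 3.44, 3.54, 3.46 and 3.90 in MNNG_High (0.72 ± 0.16, adjusted p = 0.000463), all of them dim. UBE2QL1 and TDRP rose by 1.04 and 0.97 (adjusted p = 0.0058 and 0.000823). UBE2QL1 lost its call without the mixture array, at 0.58, and with all arrays brought again to one distribution UBE2QL1 and RTN1 lost theirs, at 0.68 and 0.14. Among members not called, CHRNA1 gave -0.29, MN1 -0.33 and PDZRN3 1.03 (adjusted p = 0.277, 0.207 and 0.0734). Against MNNG_Low, whose low means chose the members, their median was 0.83, from -0.76 for MN1 to 1.90 for PASD1. It was -0.64 over all genes tested, and no test was made.

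**Figure D5:**
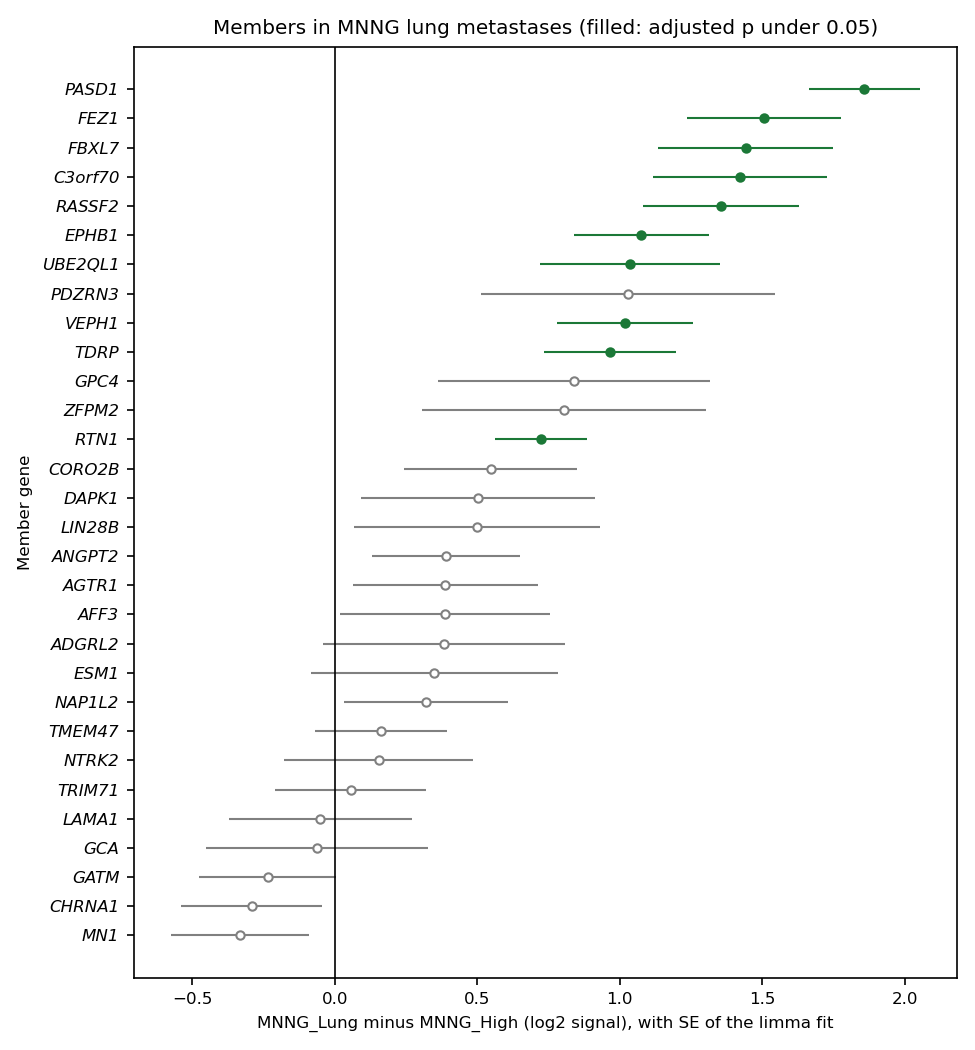
Difference MNNG_Lung minus MNNG_High in log2 signal (points) with the SE of the limma fit (lines) for each member; filled points are the 10 with an adjusted p under 0.05. PASD1 is highest at 1.86 and MN1 lowest at -0.33.

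Markers of other cell types were called higher on the lung arrays too, and their part in these differences was not tested. The shares to set beside them are the 34.8% of all genes tested and the 71.3% of genes dim in MNNG_High that were called higher. The filter can by itself raise the 71.3%, and likewise the share of markers that passed it partly through their lung arrays. The muscle lists had 4 of 5 (endplate) and 4 of 6 (myogenic regulators and muscle proteins) called higher as well. Of 7 tested macrophage markers 5 rose and 0 fell, and the mean level of that list was 6.83 to 6.96 in MNNG_Lung, against 5.48 to 5.94 in MNNG_High. Of 6 tested lung epithelium markers 5 rose and 0 fell, SFTPC, surfactant protein C, by 1.41, with list means of 6.93 to 7.03 in MNNG_Lung, against 5.68 to 6.09 in MNNG_High. All 5 tested endothelial markers rose, with list means of 5.93 to 6.29 in MNNG_Lung, against 4.91 to 5.16 in MNNG_High. Of the endothelial markers that were not tested, TEK had a mean of 7.03 in MNNG_Lung, against 4.92 in MNNG_High, and CDH5, the endothelial cadherin, had 4.62, against 3.59. Of 9 tested mesenchymal and osteoblast genes, the tumor lineage list, 0 were called higher and 4 lower. That share was near the 47.6% of all genes tested that were called lower. The 4 were NT5E, at 5.15 in MNNG_Lung against 10.97 in MNNG_High, SPARC, COL1A1 and RUNX2. With a second quantile normalization over the represented genes, 3 of the 9 were called higher. How much tumor RNA the lung arrays hold was not tested.

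The edges of the selection are given without a test. Just outside the limits lay NCAM1, at 8.95 in 143B_Low and 5.06 in MNNG_Low, CECR2, at 7.43 and 3.39, SERPINI1, whose difference was 2.92, and PROM1, at 7.39 and 3.10. Just inside lay MN1, at 8.49 in 143B_Low and 4.95 in MNNG_Low, AGTR1, at 7.55 and 3.43, TDRP, at 7.57 and 4.09, and RASSF2, at 7.58 and 4.46. By gene order along the chromosomes the members were scattered. All 30 matched the RefSeq gene table with their symbols unchanged, and only NTRK2 and DAPK1, 8 genes apart, lay within 10 protein-coding genes of each other.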

How the data were processed

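RNA of 18 samples was labelled with an Affymetrix 3' IVT kit and read on human expression arrays. Per the submitters' processing notes, the log2 probe set signals deposited by the authors come from RMA; neither its version nor which arrays were normalized together is given in the sources used here. Of 54675 probe sets, 41097 are annotated to 1 gene, 1801 to several and 11777 to none, and only the first kind was used. Each gene took the probe set whose mean over 18 arrays was highest, and genes reaching 5.36 on at least 3 arrays (14418) were tested. The fit was made in R 4.3.3 with limma 3.58.1, with a mean for each of 5 groups and Benjamini-Hochberg adjustment over genes tested (threshold 0.05). It was tested on simulated data. Replicates carry separate tumor numbers, apart from the arrays read as pools and the lung mixture, and the number of arrays limits precision. Members and gene lists were chosen with earlier results of these data known, and 2 lists were added after the values were seen. Every member is named, and values per array are given for the 6 marker genes, the 5 largest and 5 smallest High differences, up to 8 members called in lung and the 3 widest High minus Low differences in each line. From each list at most 4 other genes were named, by smallest p, and further ones were chosen after their values were seen. Alternatives covered normalization, filter, probe set choice, variance model, array weights, tumor as a replicate block and leaving out arrays. Promoter windows came from RefSeq on GRCh38.p14, for names and sequences only. A High and a Low array of the same tumor share a number; with tumor as a random block the consensus correlation was 0.129.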

Additional observations from a re-analysis of the deposited data

Results flagged for a closer look

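Single arrays stood apart from the other arrays of their group for 7 of 90 combinations of a member and a group of 4 or 5 arrays, by a test of the gap to the nearest array (Dixon), where chance flags about 1 in 20. All 7 were in MNNG_Low or 143B_Low, the groups whose means chose the genes, so that rate is not a fair yardstick here. The share over all genes was not computed, and the flags are given as a description. In MNNG_Low, ADGRL2 was 6.22 in tumor MNNG-1235, against 4.38 to 4.60 in the others, and ZFPM2 was 5.43 in the same tumor, against 3.22 to 3.48. Both genes were also highest in tumor MNNG-1235 in MNNG_High, at 6.32 and 4.92. Tumor MNNG-1233 was highest in MNNG_Low for C3orf70, at 4.33, against 3.62 to 3.72, and for RASSF2, at 4.58, against 4.40 to 4.43. TDRP was highest in tumor MNNG-1231 of MNNG_Low, at 4.58, against 3.89 to 3.98. In 143B_Low, ANGPT2 was lowest in tumor 143B-1255, at 8.27, against 9.05 to 9.27, and GCA was highest in tumor 143B-1253, at 8.61, against 7.52 to 7.83.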

How the results depend on the processing

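In 143B_High against MNNG_High every member present was called higher under every alternative run: 30 of 30, 28 of 28 with the mean over the probe sets of a gene and 26 of 26 with probe sets of the _x_at and _s_at types left out. With that mean AFF3 and GATM did not pass the filter. The difference between the lines was built in by the choice and the filter, so these counts, and those over single members below, add no support. The mean over probe sets lowered the members' median to 2.86. The count over all genes, 5203, was 3910 with a second quantile normalization and 3465 to 6297 with each array of the 2 groups left out, lowest without pool 51&52. It was 1579 with both pooled arrays left out, an alternative added after seeing the data, which leaves 1 array in 143B_High, assumed to vary like the other groups. With tumor as a replicate block, 5277 genes and 30 members were called, with a member median of 3.69, and in lung 11947 genes and 10 members, with a median of 0.46, so the block changed no count of members. In MNNG_Lung against MNNG_High, the 10 members called higher became 8 with a second quantile normalization, 18 with the mean over probe sets and 3 with array weights, and 9 to 13 with each array left out. The 0 called lower became 3 with a second quantile normalization, 2 with median centring and 0 to 1 with each array left out, the 1 without the lung mixture. In this section the second quantile normalization ran over all probe sets, and with it the lung median of the members was 0.14. Over single members, 564 of 564 settings kept the 143B_High call, and in lung 149 kept theirs and 11 lost it, with none reversed. The number of genes chosen was 18 with the mean over probe sets, 64 with looser limits (7, 5.5 and 2.5) and 12 with stricter ones (8, 4.5 and 3.5). The cause of these shifts was not tested. Signals near background limit the MNNG values.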
